A study of Mus musculus with 8 samples.

Results

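Gpr141 is an orphan G protein-coupled receptor gene, and 314 of the 8492 cytosine sites that the deposited table lists for mast cells lacking Tet2 lay within its span. The sites were chosen by position: every listed site on chromosome 13 between 19749680 and 19824336 (mouse build GRCm38), the span of Gpr141 in the RefSeq annotation, was taken. The table itself holds sites that the authors picked as specific to the Tet2-deficient group, by a rule not stated there, and its lowest level is 10%, so the levels are given as a description and with no test. All 314 sites had a value in all 4 libraries, and no further filter was applied.

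G protein-coupled receptors are membrane-spanning proteins that pass signals of outside ligands to G proteins inside the cell. An orphan receptor is one without an agreed natural ligand. Several receptors of this class control mast cell activation, chemotaxis and mediator release. In RNA, 5-methylcytosine is placed by enzymes of the NSUN family and a few relatives, and TET enzymes such as Tet2 can oxidise it to 5-hydroxymethylcytosine. Bisulfite turns unmodified cytosine into uracil and leaves both modified forms as cytosine, so it does not tell them apart.

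The cells were bone marrow derived mast cells of C57BL/6 mice, grown from femoral marrow for 4 to 6 weeks with the cytokines IL-3 (10 ng/ml) and SCF (5 ng/ml), and over 97.5% of them carried FcεRI and c-Kit, per the labels. The series has 4 wild-type libraries and 4 libraries of genotype Tet2-/-, each genotype as 2 biological replicates with 2 technical replicates each. The table used here gives levels of the Tet2-/- libraries only, and wild-type levels were not used, so nothing below compares the genotypes. Its columns are called K1rep1, K1rep2, K2rep1 and K2rep2; these names were read as the biological replicate (after K) followed by the technical one (after rep). The labels do not say whether the biological replicates came from separate mice. The table holds no RNA levels, so the mast cell identity of the cultures was not checked from it. Listed sites lay in 3 of 20 genes taken as mast cell markers: Il1rl1 (445 sites), Cpa3 (1 site) and Hpgds (1 site). They also lay in 1 of 31 genes listed as markers of other blood cells (Cd200r3, listed for basophils, 102 sites). The marker lists shared a gene, so a place on the second list does not exclude expression in mast cells. Of all 49997 annotated genes, 110 (0.22%) had a site. A listed site is not a measure of expression, so these counts do not check cell identity. A site's level is the proportion of its reads with a retained cytosine, averaged over the RNA molecules of a whole culture. Unmodified cytosine that escaped conversion counts in it too. Read numbers were not analysed here, so the depth and counting error of each level are unknown. Some levels sat on simple fractions: K1rep2 read 60% or 80% at all 5 sites from 19791079 to 19791096. Few reads can give such steps, which was not tested. Errors are the SD over 2 biological replicates after averaging technical replicates.

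The sites of Gpr141 did not spread along the gene. With sites up to 500 bases apart joined, they formed 3 regions that covered 2733 bases, or 3.66% of the 74657 bases of the span. Gpr141 is read from the minus strand, so its 5′ end lies at the upper coordinate. The region nearer to that end held 180 sites between 19790068 and 19791247, 33089 to 34268 bases inside the span, and is called the start-proximal cluster here. The other large region, the start-distal cluster, held 132 sites between 19775485 and 19776998, 47338 to 48851 bases inside the span. Between them lay a pair of sites at 19787557 and 19787595. Whether these positions fall in exons, introns or untranslated regions was not analysed here, nor were the strand of the sites and the sequence around them.

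**Figure D1:**
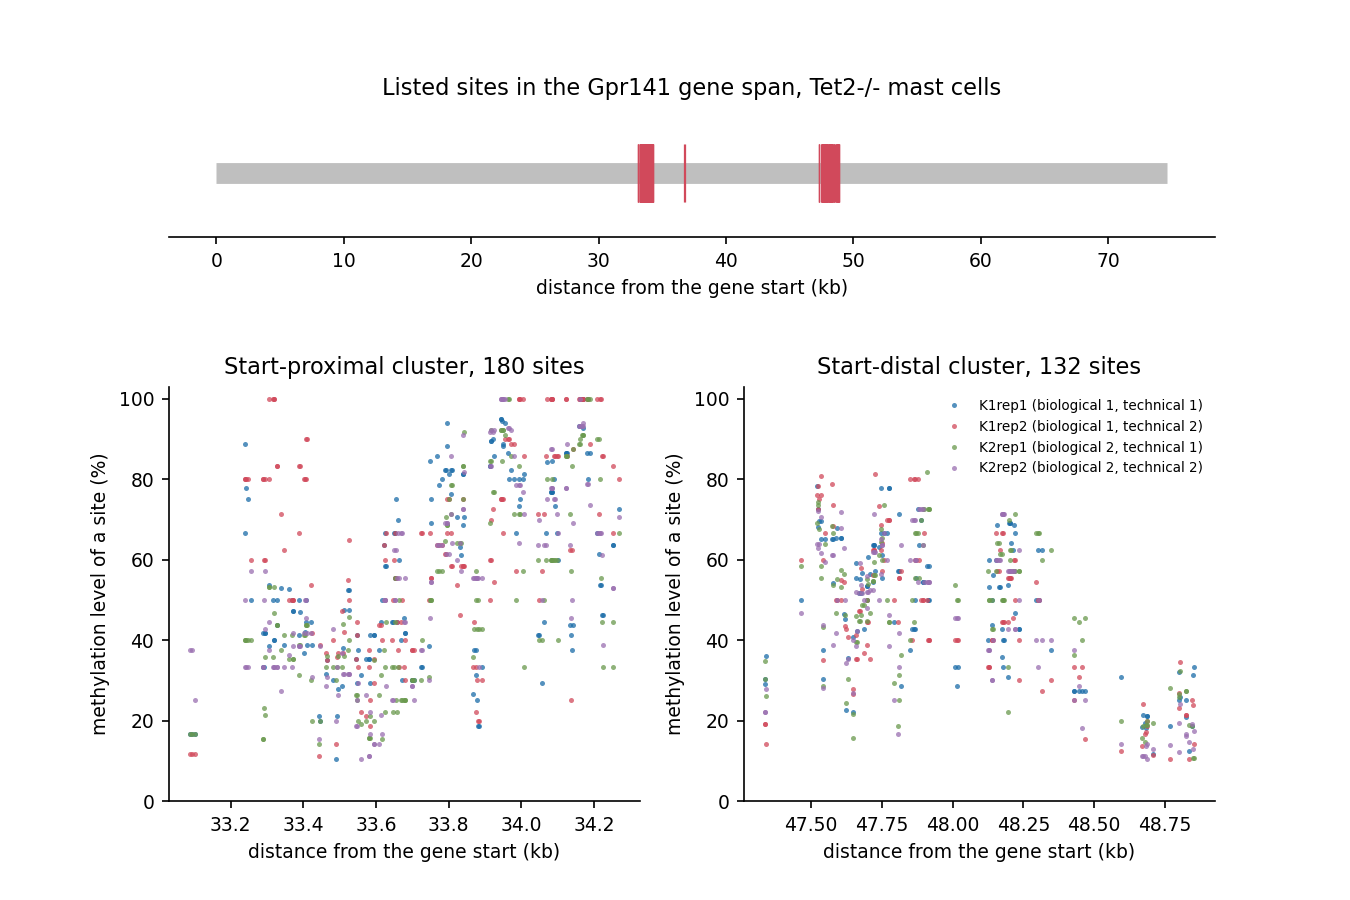
Upper panel: the Gpr141 span (grey bar) with a line for each of the 314 listed sites, against distance from the 5′ end of the span in kb. Lower panels: level of each site in percent in each of the 4 Tet2-/- libraries (coloured points) in the start-proximal cluster of 180 sites and the start-distal cluster of 132 sites; the highest points lie in the start-proximal cluster and many of the points under 20% gather at the far end of the start-distal one.

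The rest of the span had no listed site. The promoter window of Gpr141, from 250 bases before to 50 bases after its annotated start (19824208 to 19824507), had 0 listed sites. The pseudogene Gm19154, which lies inside the Gpr141 span, had 0 sites, and so did Gpr141b, the related receptor gene 16725 bases away, with which Gpr141 could share reads. The other annotated genes within 200 kb, Epdr1, Sfrp4, Nme8 and the pseudogene Gm5446, had 0 sites as well. The nearest listed sites on the upper side were 15 sites between 19837018 and 19837098, outside any gene and 12682 bases beyond the 5′ end of the span. Their mean levels were 50.03% in K1rep1, 35.6% in K1rep2, 28.1% in K2rep1 and 18.5% in K2rep2, or 33.1% ± 13.8 (SD, n = 2). On the lower side the nearest listed site was 7299304 bases away. Gpr141 held 36.0% of the 872 listed sites of chromosome 13. An empty stretch cannot be told apart from one without enough reads or from one whose sites were not chosen.

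Other receptors were looked up in the same way. Of 88 G protein-coupled receptor genes of blood cells and orphan receptors, among them the histamine receptor Hrh4, the adenosine receptor Adora3, the complement receptor C5ar1 and the mast cell receptor Mrgprb2, 0 had a site in the table. Of the 49997 annotated genes, 110 (0.22%) had one, so a count of 0 in 88 is no result about the list. Absence from the table does not show that their RNA was unmodified.

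Over its 314 sites, Gpr141 had a mean level of 53.4% in K1rep1, 56.5% in K1rep2, 49.8% in K2rep1 and 51.1% in K2rep2. Both libraries of biological replicate 1 lay above both of replicate 2, and the mean was 52.7% ± 3.19 (SD, n = 2). Site means ran from 13.9% to 97.2% with a median of 52.7%, and the middle 50% lay between 39.4% and 64.1%. A single site's range over the 4 libraries had a median of 22.2 points, so the levels of 1 site also varied widely between libraries. At 112 sites (35.7%) every library read 50% or more, against 33.6% of all listed sites. At 5 sites every library read under 20%, and at 0 sites did every library read 100%. For the counts of 5 and 0 sites no share of all listed sites was taken, so they do not set Gpr141 apart from the table.

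The start-proximal cluster had the higher mean. Its libraries stood at 57.4% in K1rep1, 63.6% in K1rep2, 51.2% in K2rep1 and 54.8% in K2rep2, with a mean of 56.8% ± 5.34 (SD, n = 2). The start-distal cluster stood at 48.5%, 47.2%, 48.5% and 46.5% in the same order, with a mean of 47.7% ± 0.252 (SD, n = 2). The 4 libraries thus lay within a few points of each other in the start-distal cluster and spread widely in the start-proximal one. The difference, start-proximal minus start-distal, was 9.10 ± 5.09 points (SD, n = 2). It was positive in 4 of 4 libraries, from 2.72 points in K2rep1 to 16.5 points in K1rep2. With 2 replicates an exact sign-flip permutation test cannot go below p = 0.5, so none was run. The difference was 3.09 points between medians over sites, whose values in the clusters lay closer together than the means did. The pair of sites between the clusters was low, with levels from 16.7% to 33.3% at 19787557 and from 12% to 20% at 19787595.

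The start-proximal cluster was also the denser one, with 15.3 sites per 100 bases against 8.72 in the start-distal cluster and a median of 9.88 over the 53 genes with 10 or more sites. In both clusters the median step from a site to the next was 4 bases. Of the 311 steps within regions, 80 were between adjacent bases and 41 were of 2 bases, and 305 sites (97.1%) had another listed site within 10 bases. This is not particular to Gpr141: the share was 97.6% in Fut8, 95.5% in Cyp4a12b and 91.3% in Inpp4b. The longest unbroken run was 5 listed positions, 19790250 to 19790254, in the start-proximal cluster. Its means were 78.5% in K1rep1, 100% in K1rep2, 64.0% in K2rep1 and 81.7% in K2rep2, so the 5 adjacent positions read 100% throughout in 1 library and lower in the other 3.

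Adjacent sites had the most similar levels and the most distant neighbours the least. Means of adjacent positions differed by a median of 2.28 points over 80 pairs. The median difference was 3.13 points for steps of 2 bases (41 pairs), 4.76 points for 3 to 5 bases (69 pairs), 4.08 points for 6 to 10 bases (62 pairs), 6.32 points for steps of 11 to 50 bases (49 pairs) and 11.1 points for the 10 steps of more than 50 bases. Neighbouring sites can be read from the same molecules, so they are not independent measurements.

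Over longer distances each cluster had a high and a low part; the boundaries given here were drawn after the values were seen. In the start-proximal cluster, the 87 sites between 19790068 and 19790563 were high, at 71.1% in K1rep1, 74.5% in K1rep2, 70.6% in K2rep1 and 74.1% in K2rep2. The mean of this part was 72.6% ± 0.345 (SD, n = 2), but windows of 100 bases within it differed in opposite directions. In the 14 sites from 19790068 on, K1rep2 stood at 90.1% and the other libraries between 68.7% and 72.8%. In the window from 19790368, with 21 sites, K1rep2 was the lowest at 57.3% and the others lay between 68.8% and 80.3%. The highest sites of the gene lay here. At 19790175 the levels were 100%, 100%, 88.9% and 100% in K1rep1, K1rep2, K2rep1 and K2rep2. The next highest, at 19790167, 19790168, 19790174 and 19790165, had means from 94.5% to 96.1%. The lowest site of this part had a mean of 28.7%.

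The other 93 sites of the start-proximal cluster, from 19790568 to 19791247, were lower and less uniform. They stood at 44.6% in K1rep1, 53.5% in K1rep2, 33.1% in K2rep1 and 36.7% in K2rep2, with a mean of 42.0% ± 10.0 (SD, n = 2). Within them the 53 sites between 19790568 and 19790854 had 45.4%, 44.3%, 31.7% and 35.9% in the same order, both libraries of replicate 1 above both of replicate 2. The 37 sites between 19790871 and 19791096 behaved differently. There K1rep2 stood at 70.0%, while K1rep1 had 45.9%, K2rep1 36.3% and K2rep2 38.2%. K1rep2 was the highest library at 32 of these 37 sites, and the libraries of replicate 1 lay further apart from each other than K1rep1 lay from either library of replicate 2.

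**Figure D2:**
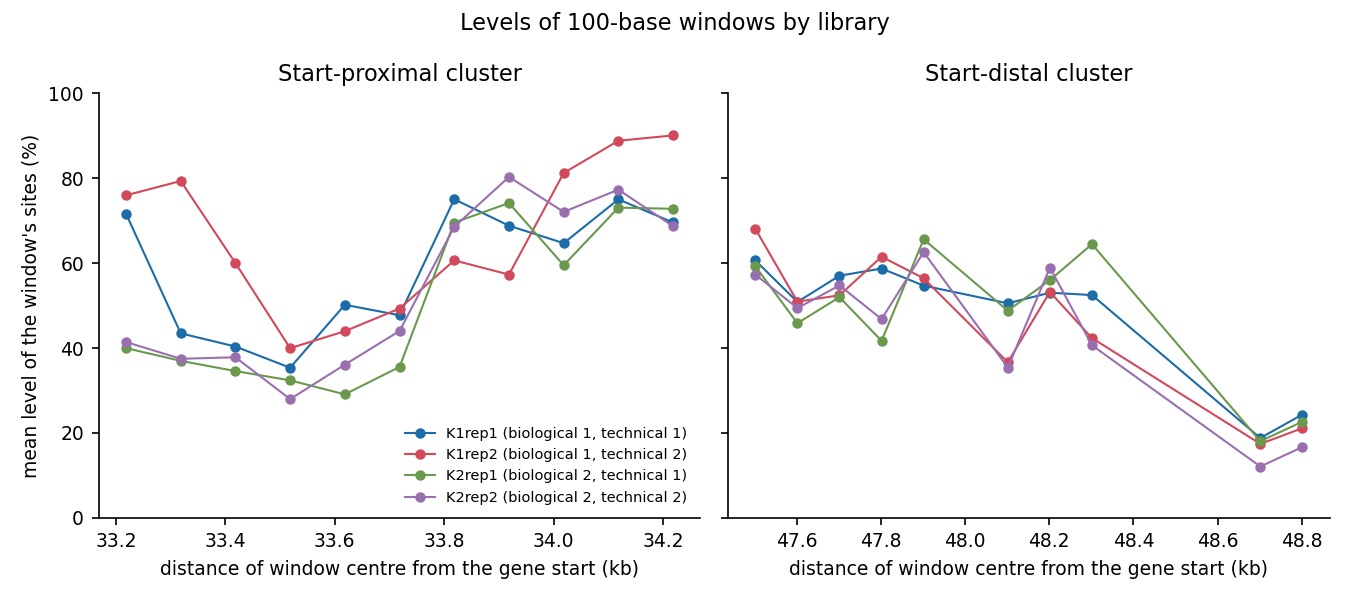
Mean level in percent of the sites of each 100-base window with 5 or more sites, against the distance of the window's centre from the 5′ end of the Gpr141 span in kb, with a line for each of the 4 Tet2-/- libraries. K1rep2 lies above the other libraries in the second window from the left of the start-proximal cluster, at 79.4%, and in the window at its right end, at 90.1%, while K1rep1 is near it in the leftmost window, and all libraries fall to between 12.1% and 24.3% at the right end of the start-distal cluster.

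The start-distal cluster had a broad middle and low ends. Its 106 sites between 19775988 and 19776871 had 54.4% in K1rep1, 53.7% in K1rep2, 54.0% in K2rep1 and 53.4% in K2rep2, a mean of 53.9% ± 0.228 (SD, n = 2). This small SD averages over windows whose gaps had opposite signs: biological replicates 1 and 2 stood at 60.1% and 44.3% in the window from 19776485 (11 sites) and at 55.6% and 64.1% in the window from 19776385 (15 sites). In the window from 19775985, with 5 sites, the libraries ran from 40.7% to 64.5%. The 18 sites at its outer edge, 19775485 to 19775741, had 22.6%, 19.2%, 20.7% and 14.8%, a mean of 19.3% ± 2.22 (SD, n = 2). The fall between these parts was present in every library. Sites between the parts were intermediate, with means of 29.0% in the window from 19775785 (2 sites) and 32.4% in the window from 19775885 (3 sites). At the opposite end of the cluster, the 3 sites from 19776996 to 19776998 had a mean of 26.0%. Of the 5 lowest sites of the gene, 4 lay in the outer edge of 18 sites, at 19775628, 19775502, 19775666 and 19775658, with means from 13.9% to 15.5%. The remaining one was 19790893 in the start-proximal cluster, at 15.5%. No level under 10% is listed, so the low edges may reach further than the table shows.

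Agreement between libraries differed between the clusters. In windows of 100 bases with 5 or more sites, the gap between biological replicates had a median of 3.81 points over the 10 windows of the start-distal cluster and 9.08 points over the 11 windows of the start-proximal one. The widest gap was 33.1 points, in the window from 19791068 to 19791167 with 5 sites. There K1rep1 and K1rep2 stood at 71.7% and 76.0%, and K2rep1 and K2rep2 at 40.0% and 41.4%. These are window means: at the first site, 19791079, K1rep1 read 50% and K2rep2 57.1%. K1rep2 was the highest library in 8 of the 11 start-proximal windows and in 3 of the 10 start-distal ones. The range of a site over the 4 libraries had a median of 25.7 points in the start-proximal cluster, 17.1 points in the start-distal cluster and 22.7 points over all listed sites. A range above 50 points occurred at 10 sites (3.18%), all in the start-proximal cluster (5.56% of its sites), and at 4.15% of all listed sites, so the count is near that of the table.

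At 89 of the 314 sites (28.3%) both libraries of biological replicate 1 lay above both of replicate 2, where 14.7% of all listed sites did. The opposite order held at 41 sites (13.1%), against 15.7% of all listed sites. K1rep2 was the highest of the 4 libraries at 115 sites (36.6%), against 17.5% of all listed sites. For K1rep1 this was so at 77 sites (24.5%, against 28.2%), for K2rep1 at 51 (16.2%, against 15.6%) and for K2rep2 at 53 (16.9%, against 26.8%). K1rep2 read 100% at 27 Gpr141 sites (8.60%, against 6.26% of all listed sites), all of them in the start-proximal cluster. The other libraries did so at 4 to 7 sites (1.27% to 2.23%, against 5.72% to 7.47% of all listed sites). Neighbouring sites move together, so these counts are those of a few stretches and carry no test. Across the 314 sites the levels of K2rep1 and K2rep2 correlated at r = 0.81 and those of K1rep1 and K1rep2 at 0.69. K1rep1 correlated with K2rep1 at 0.75 and with K2rep2 at 0.76, above its own technical pair. K1rep2 correlated with K2rep2 at 0.64 and with K2rep1 at 0.61, the lowest of the 6 pairs. Neighbouring sites of a library can be read from the same molecules, so the 314 sites are not independent and these values are descriptions. The mean absolute difference per site was 13.6 and 10.5 points for the technical pairs and 11.5 to 16.4 points for the biological pairs. The gap between biological replicates over the whole gene, 4.51 points, became 3.00 points without K1rep2.

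Sites close to each other departed from their own means together. For pairs of Gpr141 sites 1 to 10 bases apart, the deviations from each site's own average, after subtracting the library means, correlated at 0.69 (500 pairs). The value was 0.33 at 11 to 50 bases, 0.14 at 51 to 150 bases and -0.01 in the next bin, up to 300 bases. All other listed sites had 0.76, 0.51, 0.25 and 0.03 at these distances, but with library means taken over the whole table. For Gpr141 and its clusters the library means were those of the Gpr141 sites. Shifts of a library at other single genes thus stay in the values of the other sites, and the series are not like for like. The start-distal cluster had 0.55 and 0.12 in the first pair of bins and the start-proximal cluster 0.74 and 0.40. Without K1rep2, the Gpr141 values were 0.62 and 0.15. The pairs share sites, libraries and molecules, so these correlations are descriptions.

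**Figure D3:**
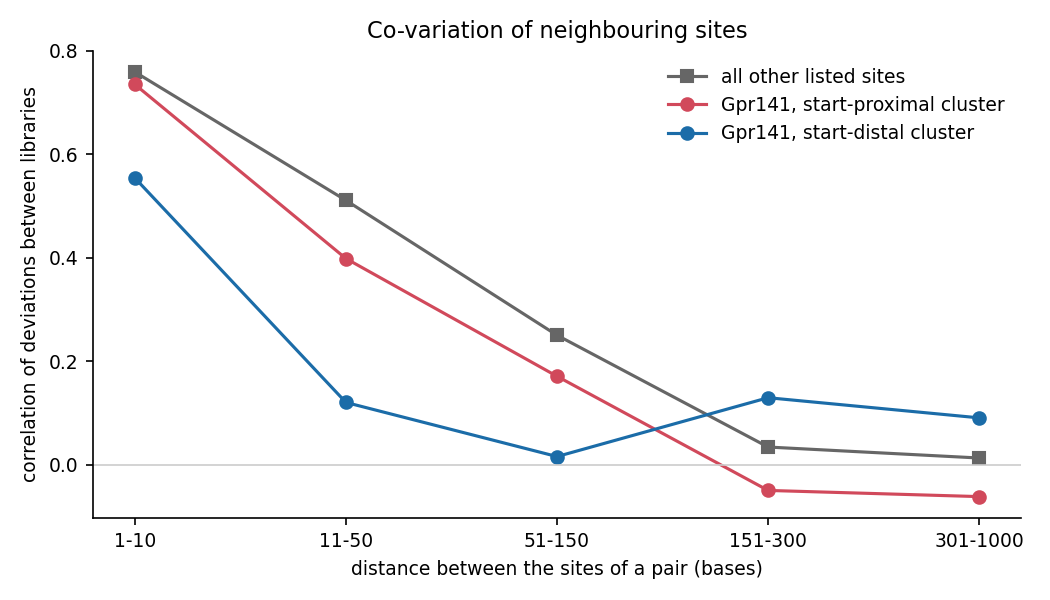
Vertical axis: how strongly the deviations of paired sites correlated over the libraries. Horizontal axis: spacing of the pair in bases, in 5 bins of unequal width, for the 2 Gpr141 clusters and for all other listed sites. The start-distal cluster falls to 0.12 at 11 to 50 bases, where the start-proximal cluster is at 0.40 and the other sites at 0.51. Library means were subtracted over the Gpr141 sites for the clusters and over the whole table for the other sites.

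Gpr141 had many sites and a level near the middle of the genes with sites. Among the 53 genes with 10 or more sites it ranked 5 by number of sites, 10 by the spread of levels over its sites and 21 by mean level. It ranked 18 by the gap between biological replicates, 4.51 points against a median of 3.14. With the column names read the other way, it ranked 32, with 2.14 points against a median of 2.60. Its start-proximal cluster was the region with rank 8 by number of sites among 259 regions, and its start-distal cluster had rank 12. The genes whose 4 library means were most like those of Gpr141 were Cyp4a12b, a cytochrome P450, Inpp4b, a phosphoinositide phosphatase, and Mctp1, a calcium-binding membrane protein, with mean absolute differences of 2.13, 2.30 and 3.56 points. Gpr141 minus Inpp4b was 0.95 ± 2.35 points and Gpr141 minus Cyp4a12b 0.96 ± 2.29 points (SD, n = 2 for both). Each was positive in 3 of 4 libraries. Among the genes with the most sites, earlier results of these data placed Inpp4b and Cyp4a12b closest to Gpr141 in level, and they were picked for that. Small differences were thus fixed by the choice and are no evidence of likeness. Both differences turned negative with each region counted once, at -5.33 and -3.41 points, and without sites that have a listed neighbour within 10 bases, at -6.15 and -24.1 points, where Gpr141 rests on 9 sites. Fut8, the enzyme of core fucosylation of N-glycans, has a similar number of sites, 288, also in 3 regions. Gpr141 minus Fut8 was -12.6 ± 2.84 points (SD, n = 2) and negative in 4 of 4 libraries, from -16.3 to -7.08 points. It was -24.0 points with each region counted once and -23.8 points without sites that have such a neighbour.

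**Figure D4:**
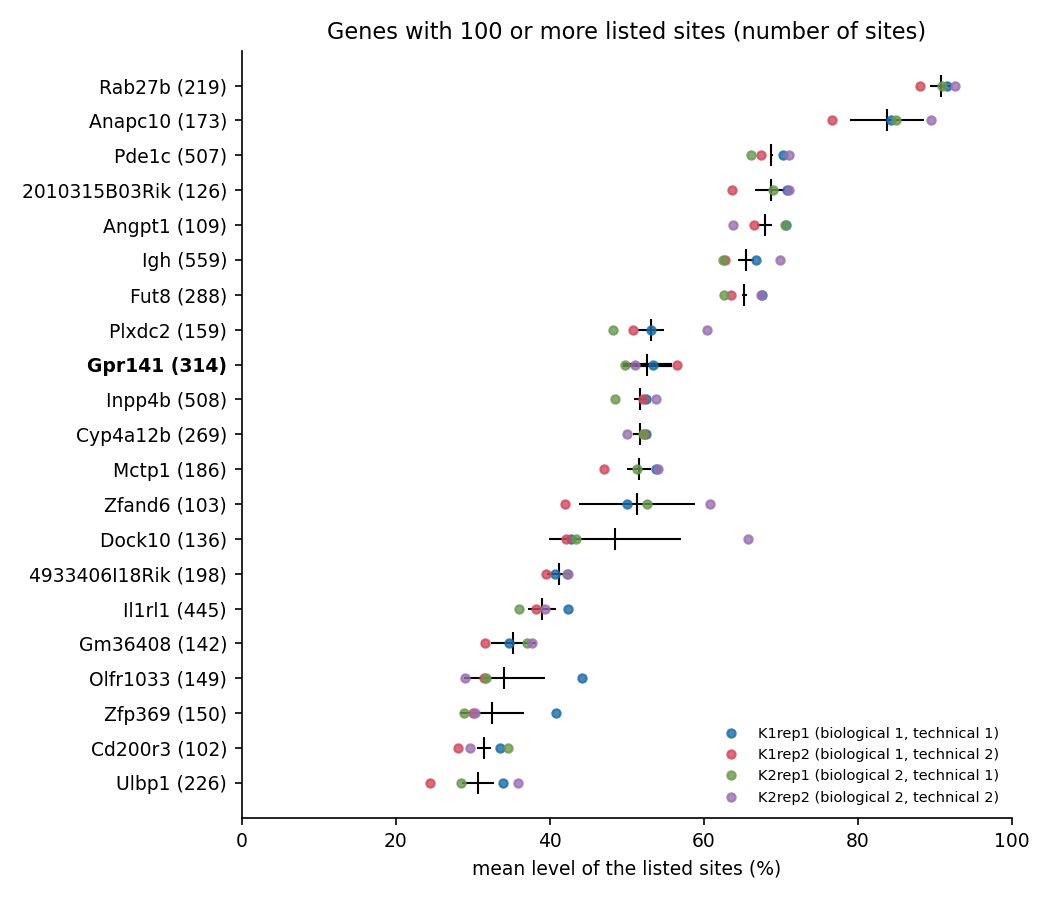
The 21 genes with 100 or more sites (number of sites in brackets) against the mean level of those sites in percent; coloured points are the 4 Tet2-/- libraries, and the tick and bar are the mean and SD over 2 biological replicates. Gpr141 (bold) lies at 52.7%, close to Plxdc2, Inpp4b, Cyp4a12b and Mctp1 and below Fut8 at 65.3%.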

How the data were processed

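RNA bisulfite sequencing was done on poly(A) RNA treated with DNase and mixed with unmethylated lambda RNA as a control, in stranded libraries read as pairs of 150 bases, per the labels' protocols. The deposited table gives, per the file headers, a methylation rate per site and library, a fraction that was multiplied by 100 here. The submitters' processing notes name mm10 and GRCm38; for the aligner, caller, coverage minimum, conversion rate and site selection rule, the sources used here give nothing. No read numbers were used, so depth is unknown.

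Sites were assigned by the RefSeq gene span of GRCm38 patch 6 and joined into regions up to 500 bases apart; windows of 100 bases start at the first site of a cluster. Technical replicates were averaged first. Genotype tests, planned in case wild-type values or read numbers were present, were not run. Genes named are Gpr141, its neighbours, Inpp4b, Cyp4a12b and Fut8, the 3 genes with library means most like it, and members of fixed lists with sites; regions, extreme sites and the region of widest replicate gap are named within Gpr141. Plxdc2 and the parts of clusters were picked once their values had been seen. The members and lists were chosen with earlier results of these data known. All 88 receptor, 20 mast cell marker, 31 other marker and 9 neighbour entries matched a gene of the annotation, and 0 neighbours had sites. Alternatives covered clustered sites, level minimums, region distances, medians, the reading of column names and leaving out replicates. Python 3.11.15, numpy 2.4.6, pandas 2.3.3 and matplotlib 3.10.9 were used.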

Additional observations from a re-analysis of the deposited data

Results flagged for a closer look

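A search for single libraries that stand apart covered 25 values: the gene, its 3 regions and the 21 windows of 5 or more sites. In 1 of them a library did. The rule was Dixon's ratio, the distance of the outermost library to its nearest neighbour divided by the range of all 4. Its cut-off lets about 1 in 20 values pass by chance if the 4 libraries are independent. Here the libraries are technical pairs of biological replicates, and the gene, regions and windows share sites. That chance rate therefore does not apply, and the window is given as a description. In the start-proximal cluster, the window from 19790968 to 19791067 with 15 sites had a mean level of 79.4% in K1rep2, against 37.0% to 43.5% in the other libraries. The distance to the nearest of them was 0.847 of the range of all 4. K1rep2 was the highest library at 14 of the 15 sites, with levels from 50% to 100%. The other technical library of the same biological replicate, K1rep1, ran from 33.3% to 53.8% over these sites.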

How the results depend on the processing

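The mean level of Gpr141 was 32.9% without clustered sites (9 sites), 57.7% with at least 20% in every library, 41.3% with each region counted once, and 50.4% to 54.96% with a replicate or library left out. Its SD was 1.52 points with the column names read the other way. The number of sites was 62 with positions within 10 bases merged, and the number of regions was 7 with a joining distance of 100 bases. Gpr141 minus Inpp4b was -6.15 points without clustered sites, -5.33 by region and 3.79 by medians, and -0.71 to 2.61 with a replicate or library left out. Gpr141 minus Cyp4a12b was -24.1 and -3.41 in the first pair of settings and -0.65 to 2.58 with one left out. Gpr141 minus Fut8 was -23.8, -24.0, -8.31 with at least 20% in every library, and -14.6 to -10.6 with one left out. The difference between the large clusters was 41.7 points without clustered sites, which leaves 1 and 6 sites, 3.09 by medians and 5.50 to 12.7 with one left out. The replicate gap of the gene was -2.14 points with the names read the other way and 3.00 to 6.03 with a library left out. For the start-proximal cluster the gap was 4.46 (without K1rep2) to 10.6 and the level 55.2% to 58.3%. Leaving out libraries for the gaps, clusters and gene differences, all settings for the cluster difference, and the level minimum for gene differences were chosen after seeing the data. No paired analysis was possible because only Tet2-/- levels were used and there is no second group. Coverage settings were not run, and what depth limits cannot be stated.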
